A study of Mus musculus with 15 samples.

Results

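The genes described here are 39 listed genes of sphingolipid metabolism and of the receptors for sphingosine 1-phosphate (S1P), followed through NIH3T3 cells that express Runx transcription factors. Members were found by their symbols in the platform annotation, and each gene was read from its brightest probe set, the one with the highest mean over the 15 arrays. By this rule 38 of the 39 were measured, of 18193 genes in all. The only probe set of Ormdl3, a regulator of serine palmitoyltransferase, is annotated to several genes, so Ormdl3 is not described. A probe set is a group of short oligonucleotides on the array that together read 1 transcript. Of the 38 genes, 25 had a mean above 5 log2 units, and 13 were dim, with a mean at or below it.

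NIH3T3 is an immortalised line of mouse fibroblasts. All cells had been transduced with the retroviral vector pBabe-puro, which carried no insert (vector), a constitutive mouse Runx1, Runx2 or Runx3 construct, a constitutive human RUNX1 construct, or RUNX1-ER, an inducible human RUNX1 switched on by 4-hydroxytamoxifen (4-OHT). Vector cells were profiled without and with 4-OHT and RUNX1-ER cells uninduced and induced, which makes 8 groups with 2 arrays each, apart from human RUNX1 with 1 array. Per the labels' protocols the cultures grew for 7 days to confluence and had ethanol (0.2%), alone or with 4-OHT (0.1 mM), for 24 hours before RNA was taken. The labels do not say which of these the constitutive lines received, and they give neither the number of clones nor the level of each protein. The titles number the arrays as biological replicates, but nothing states that they came from separate transductions, and each p-value therefore reflects the spread of these arrays alone.

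Sphingolipids are built on a long-chain base. Serine palmitoyltransferase starts their synthesis, ceramide synthases and a desaturase complete ceramide, and ceramide then becomes sphingomyelin, glucosylceramide and the gangliosides built on it, or is cut to sphingosine. Sphingosine kinases make S1P, phosphatases and a lyase remove it, and secreted S1P acts on G-protein-coupled receptors that steer adhesion, migration and survival, while ceramide itself is known as a mediator of stress and death signals.

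The members with the largest changes past the test in any single mouse Runx line were Ugcg, Sgpp1, St3gal5 and S1pr2. For that reason the 250 bases before the start of each of these 4 genes are printed. Of the single mouse lines, S1pr2 was called only in the Runx3 line. The windows come from RefSeq on GRCm38.p6, 5′ to 3′ on the strand of the gene, and capitals mark GC boxes (GGGCGG or, on the other strand, CCGCCC), a motif chosen after the sequences had been seen. Ugcg lies at chr4:59189300-59189549 on the plus strand, Sgpp1 at chr12:75735730-75735979 on the minus strand, St3gal5 at chr6:72097358-72097607 on the plus strand and S1pr2 at chr9:20976794-20977043 on the minus strand.
Ugcg: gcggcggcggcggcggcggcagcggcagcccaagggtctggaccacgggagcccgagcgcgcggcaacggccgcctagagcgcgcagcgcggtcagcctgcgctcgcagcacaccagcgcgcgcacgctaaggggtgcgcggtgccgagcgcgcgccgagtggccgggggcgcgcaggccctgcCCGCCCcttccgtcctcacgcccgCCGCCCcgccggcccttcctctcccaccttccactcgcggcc
Sgpp1: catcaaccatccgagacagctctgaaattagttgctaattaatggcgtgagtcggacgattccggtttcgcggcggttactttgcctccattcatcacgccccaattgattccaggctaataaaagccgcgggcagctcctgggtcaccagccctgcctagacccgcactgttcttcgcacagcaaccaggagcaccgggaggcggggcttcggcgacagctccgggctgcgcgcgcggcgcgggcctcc
St3gal5: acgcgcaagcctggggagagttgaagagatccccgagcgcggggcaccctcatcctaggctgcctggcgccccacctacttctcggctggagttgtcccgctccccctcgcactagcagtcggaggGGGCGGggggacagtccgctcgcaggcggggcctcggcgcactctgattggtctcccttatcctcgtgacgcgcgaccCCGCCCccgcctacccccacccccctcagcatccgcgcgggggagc
S1pr2: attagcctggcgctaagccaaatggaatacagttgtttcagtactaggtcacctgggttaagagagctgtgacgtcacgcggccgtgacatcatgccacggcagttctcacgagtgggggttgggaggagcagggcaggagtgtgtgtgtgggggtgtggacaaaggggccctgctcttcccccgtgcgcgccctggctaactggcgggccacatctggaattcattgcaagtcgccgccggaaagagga
The windows of Ugcg and St3gal5 held 2 GC boxes each, and those of Sgpp1 and S1pr2 held 0. Because the motif was picked from these same 4 sequences, this split is no test of a link with the direction of change. Their GC content was 80.4% for Ugcg, 71.6% for St3gal5, 61.2% for Sgpp1 and 59.2% for S1pr2, against a median of 52.4% over 32851 windows of this length, of which 32.7% held a GC box. The core of the Runx binding motif, searched as TGTGGT or TGCGGT on either strand, matched 0 times in all 4 windows. It was present in 18.6% of all windows and 24.5% of the members' 49 windows. Counted by gene, at least 1 window held it in 20.9% of all genes and in 11 of the 34 members that the promoter table holds (32.4%). Letters in a short window show neither binding nor its absence.

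On every array the median probe set read between 3.69 and 3.75 log2 units, and the upper quartile lay between 5.55 and 5.71 on the 14 replicated arrays and at 5.48 on the human RUNX1 array. Replicate differences had an SD over genes between 0.162 and 0.220, and 10 of the 14 replicated arrays were closest to their own replicate. The brightest Runx1 probe set read 9.11 and 9.30 in the mouse Runx1 line and from 4.45 to 4.88 elsewhere. The Runx3 probe set read 4.46 and 3.96 in the Runx3 line and from 4.10 to 4.54 elsewhere; where it lies relative to the construct is not known here, and Runx2 was not analysed here, so the labels of those lines were not checked by the inserted gene. Of 9 measured fibroblast markers, 1 was called higher in the Runx1 and Runx2 lines (Pdgfrb, 1.15 and 0.98), 2 were higher in the Runx3 line (Pdgfrb 0.89, Col1a1 0.85) and 2 lower (Thy1 −1.21, Col3a1 −0.50), and with human RUNX1 1 was higher (Pdgfrb 1.10) and 2 lower (Thy1 −0.80, Col3a1 −0.47). None of the 5 endothelial and 4 leukocyte genes passed in any Runx line, while 1 of 5 epithelial genes, the keratin Krt8, was higher in the Runx2 line (0.97, limma adjusted p = 0.018), the Runx3 line (2.72, 1.67e-06) and the human RUNX1 line (1.61, 0.00163). Its part in the results below was not tested.

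The constitutive lines were compared with vector cells to ask which members move with each Runx protein. Values are normalized log2 signals, a log2 change is the difference of group means, and a call is a limma adjusted p under 0.05 over all 18193 genes. In the Runx1 line 2 of 38 members rose (Ugcg, St3gal5) and 1 fell (Sgpp1), where 1.7% of all genes were called, 0.973% higher and 0.726% lower. In the Runx2 line 3 rose (Ugcg, St3gal5, Smpd2) and 1 fell (Sgpp1), against 2.57% of all genes, 0.923% higher and 1.65% lower. In the Runx3 line 4 rose (Ugcg, St3gal5, Cers6, Smpd2) and 8 fell (Sgpp1, S1pr2, S1pr3, Sgms2, Sphk1, Asah1, Smpd1, Cers2), against 9.37% of all genes, 3.97% higher and 5.4% lower. The called share of members was 7.89%, 10.5% and 31.6%, and this share was not tested. The members were listed with earlier results of these data known. Of the 38, 25 had a mean above 5 log2 units, while the median probe set read at most 3.75 on every array. The shares of all genes are therefore not matched to the members for brightness. Ugcg, St3gal5 and Sgpp1 were the 3 members called in all 3 lines, which share the vector arrays, against 0.83% of all genes. The median log2 change of the members was 0.07 in Runx1, −0.03 in Runx2 and 0.00 in Runx3 cells, and that of all genes was −0.01, −0.01 and 0.00. Without vector replicate 1 the Runx3 count was 6, without vector replicate 2 it was 7 and without Runx3 replicate 2 it was 7. Since cultures were measured in bulk, fewer cells that express a gene and less RNA per cell cannot be told apart.

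**Figure D1:**
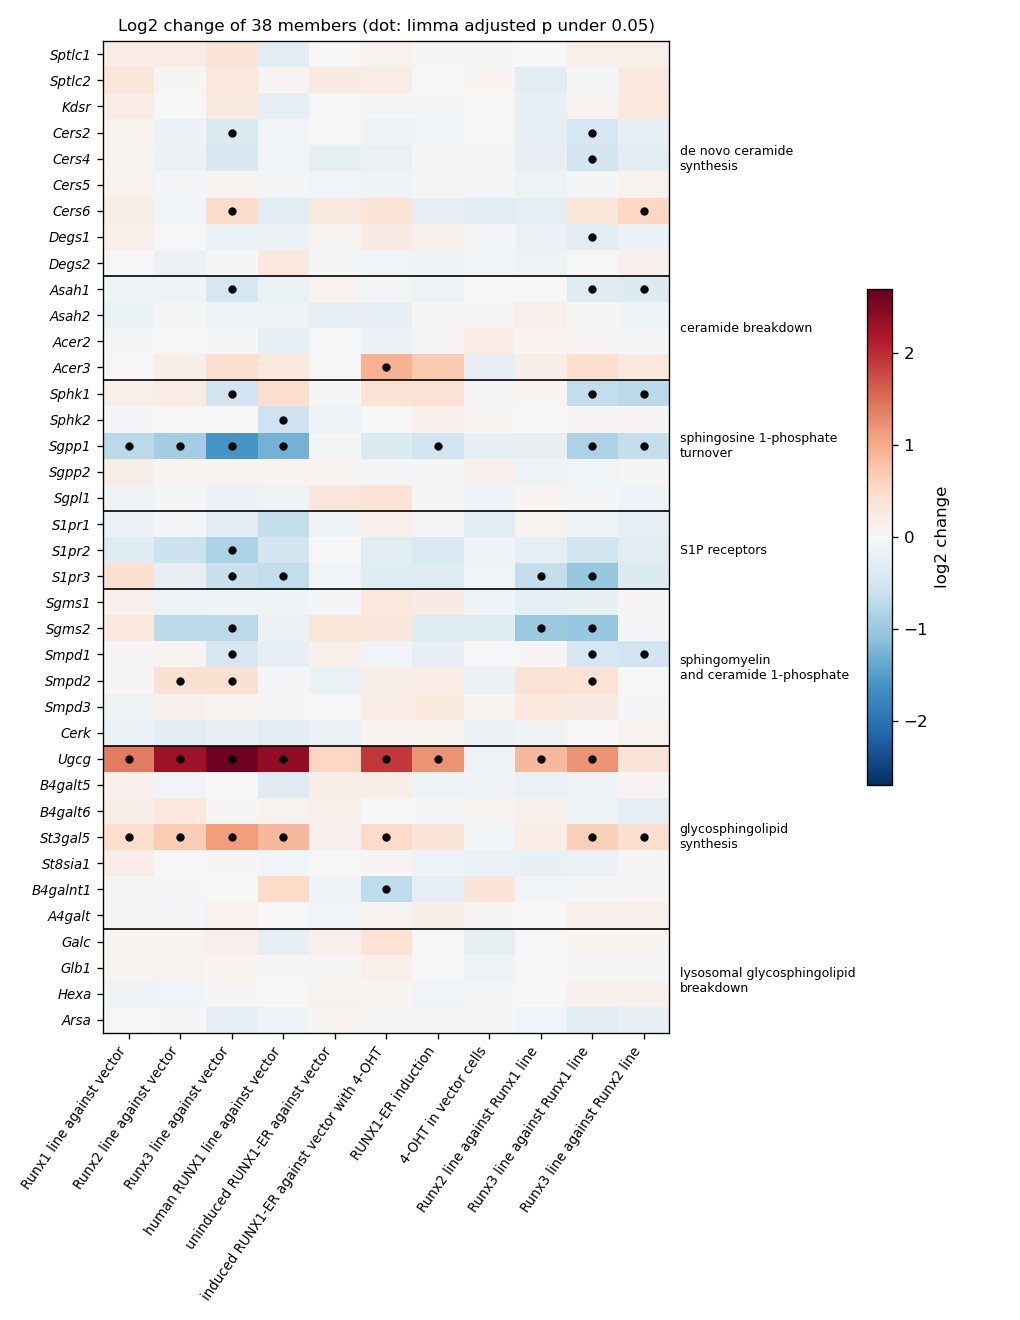
Log2 change of the 38 measured members (rows, grouped by role) in 11 comparisons (columns), with colour for the size and direction and a dot where the limma adjusted p is under 0.05. Ugcg, St3gal5 and Sgpp1 are called in all 3 mouse lines against vector, and the dots of the Runx3 columns lie across several roles.

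Ugcg, the ceramide glucosyltransferase that makes glucosylceramide and so opens the glycosphingolipid branch, had the widest range over arrays of all 38 members. It read 6.14 and 5.83 in vector cells, 7.31 and 7.48 in the Runx1 line, 8.26 and 8.28 in the Runx2 line, 8.64 and 8.58 in the Runx3 line and 8.38 with human RUNX1. Every Runx array lay above every vector array, and the arrays of the 3 mouse lines did not overlap with each other. Against vector the rise was 2.66-fold in the Runx1 line (SE 0.16 log2 units, limma adjusted p = 0.000393), 4.88-fold with Runx2 (5.26e-06) and 6.17-fold with Runx3 (3.5e-07). Among all genes ordered by the size of their rise, Ugcg stood at place 21, 6 and 12 in these lines. These comparisons share the same vector arrays. With human RUNX1 the change was 2.39 (SE 0.19, limma adjusted p = 1.66e-05).

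The lines also differed in Ugcg when compared directly. Runx3 cells exceeded Runx1 cells by 1.21 log2 units (limma adjusted p = 0.000414), and Runx2 cells exceeded Runx1 cells by 0.88 (limma adjusted p = 0.0143). The second of these calls was lost when any 1 of the 4 arrays was left out, with adjusted p from 0.0582 to 0.144. Between Runx3 and Runx2 cells the difference was 0.34, which did not pass. Ugcg has 3 further probe sets. Of these, the 2 bright ones moved in the same way, by 1.38 and 1.66 in the Runx1 line, 2.25 and 2.50 in the Runx2 line and 2.55 and 2.77 in the Runx3 line, while the last lay near the floor at a mean of 2.99 and stayed within 0.03 of vector in the Runx1 and Runx3 lines.

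**Figure D2:**
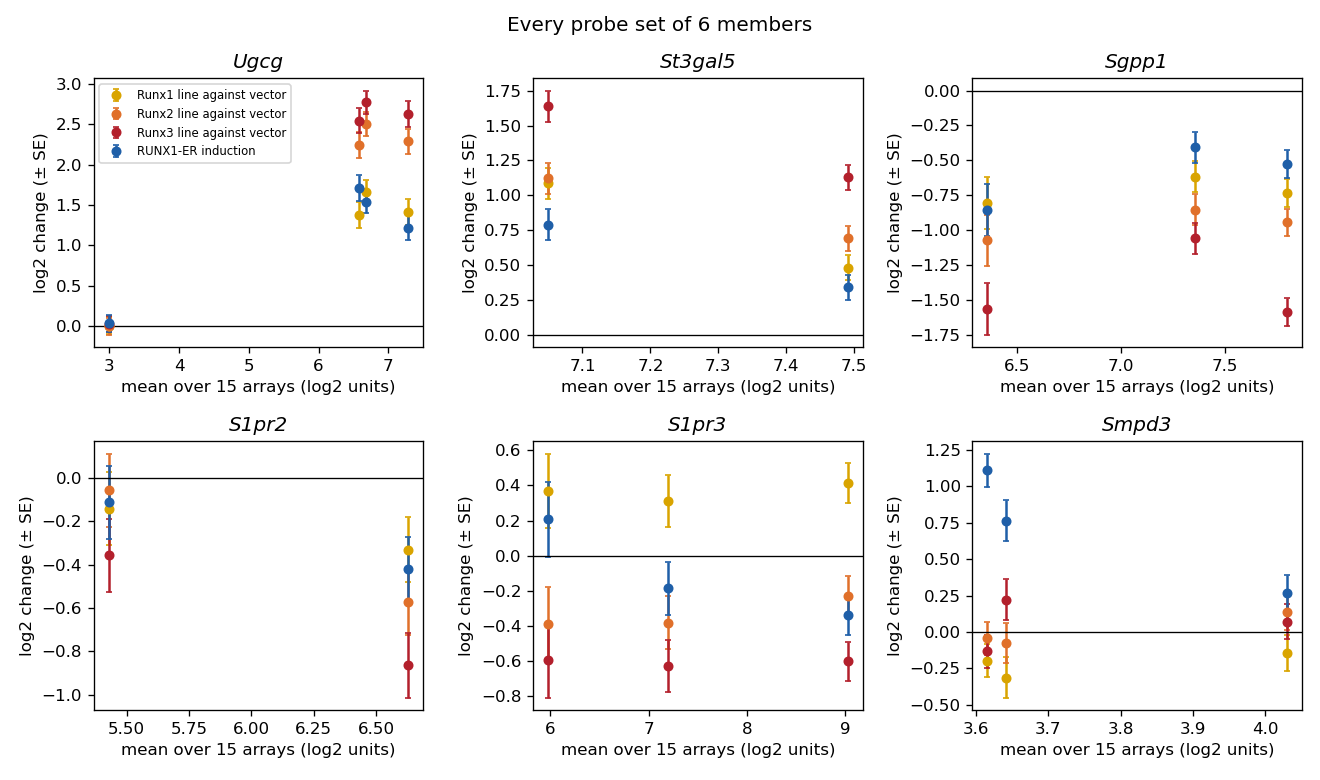
Log2 change of every probe set of Ugcg, St3gal5, Sgpp1, S1pr2, S1pr3 and Smpd3 by comparison. The bright probe sets of Ugcg, St3gal5 and Sgpp1 lie on one side of 0 in each Runx line, and a dim Ugcg probe set lies at 0.

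St3gal5 encodes GM3 synthase, the sialyltransferase that adds sialic acid to lactosylceramide and starts the ganglioside series. It read 7.06 on both vector arrays, 7.51 and 7.57 in the Runx1 line, 7.68 and 7.81 in the Runx2 line, 8.19 and 8.18 in the Runx3 line and 7.94 with human RUNX1. All Runx arrays lay above the vector arrays, in the same order of lines as for Ugcg and again without overlap. The log2 change was 0.48 in Runx1 cells (SE 0.09, limma adjusted p = 0.0118), 0.69 in Runx2 cells (0.000639), 1.13 in Runx3 cells (2.71e-06) and 0.88 with human RUNX1 (0.000336). The Runx1 call was lost without any 1 of its 4 arrays, with adjusted p from 0.0588 to 0.123. The other probe set of St3gal5 changed by 1.09, 1.12 and 1.64 in the 3 mouse lines and by 1.05 with human RUNX1. Runx3 cells exceeded Runx1 cells by 0.65 (limma adjusted p = 0.00053) and Runx2 cells by 0.44 (0.0149), and the latter call was lost without Runx2 replicate 1 (0.121), Runx3 replicate 1 (0.0788) or Runx3 replicate 2 (0.0844). Runx2 cells differed from Runx1 cells by 0.21 (limma adjusted p = 0.384), which did not pass.

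The other 5 measured genes of glycosphingolipid synthesis were the lactosylceramide synthases B4galt5 and B4galt6, the GD3 synthase St8sia1, the GM2/GD2 synthase B4galnt1 and the Gb3 synthase A4galt. None of them passed in a constitutive line, and all but B4galt5 were dim. Of the 4 lysosomal enzymes of glycolipid breakdown, Galc, Glb1, Hexa and Arsa, none passed in any of the 13 comparisons, where 17.7% of all genes passed at least once. Their log2 changes in the Runx3 line ran from −0.27 to 0.13. Genes called along this branch in the mouse lines were therefore Ugcg and St3gal5 among its 11 measured members. In the Runx1, Runx2 and Runx3 lines 1.7%, 2.57% and 9.37% of all genes were called. The counts of this branch were not tested against these shares.

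Sgpp1 encodes an S1P phosphatase of the endoplasmic reticulum that returns S1P to sphingosine, and it fell in all lines. It read 8.42 and 8.44 in vector cells, 7.70 on both Runx1 arrays, 7.37 and 7.60 in the Runx2 line, 6.90 and 6.78 in the Runx3 line and 7.15 with human RUNX1. No array of a constitutive line reached the vector level, and the 3 mouse lines followed the order of Ugcg in reverse, without overlap. The log2 change was −0.73 in Runx1 cells (SE 0.10, limma adjusted p = 0.00104), −0.95 in Runx2 cells (0.000119), −1.59 in Runx3 cells (3.27e-07) and −1.28 with human RUNX1 (SE 0.12, 4.15e-05). Runx3 cells were below Runx1 cells by a log2 difference of −0.86 (limma adjusted p = 0.000113) and below Runx2 cells by −0.64 (0.0022), while Runx2 cells differed from Runx1 cells by −0.21 (0.433), which did not pass. The other 2 probe sets of Sgpp1 changed by −0.81 and −0.62 in the Runx1 line, where the first missed the threshold (limma adjusted p = 0.0738 in the fit on every probe set), and by −1.57 and −1.06 in the Runx3 line, where both were called.

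**Figure D3:**
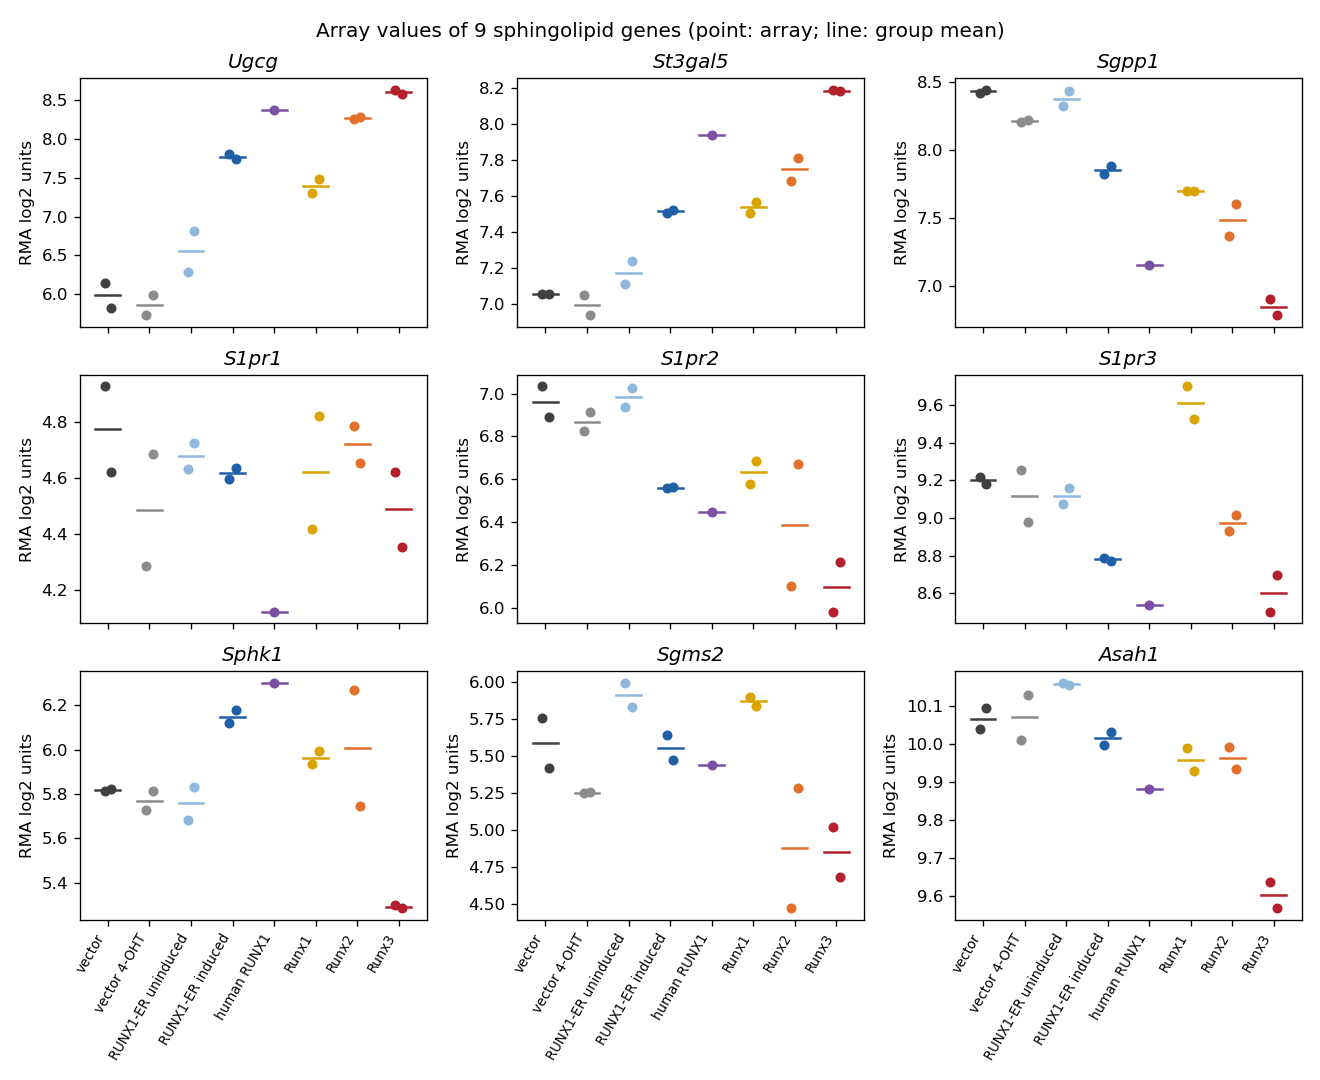
Normalized log2 signal on each array (points) for 9 members in the 8 groups. The Ugcg and St3gal5 points lie higher and the Sgpp1 points lower in the order vector, Runx1, Runx2, Runx3. The step from Runx1 to Runx2 did not pass for St3gal5 and Sgpp1, and that from Runx2 to Runx3 did not pass for Ugcg. S1pr3 is highest in the Runx1 line, and S1pr1 stays below 5 log2 units in every group.

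The kinases that make S1P behaved differently from Sgpp1. Sphk1 read 5.81 and 5.82 in vector cells, 5.94 and 5.99 in Runx1 cells, 6.27 and 5.75 in Runx2 cells, 5.30 and 5.28 in Runx3 cells and 6.30 with human RUNX1. Both Runx3 arrays lay below all other arrays of the series. Sphk1 fell in the Runx3 line by 0.53 log2 units (SE 0.13, limma adjusted p = 0.0248), a call lost without any 1 of the 4 arrays (adjusted p from 0.096 to 0.127). Runx3 cells also lay below Runx1 cells (−0.67, limma adjusted p = 0.0078) and Runx2 cells (−0.72, 0.00995). These 2 calls too were lost without 1 array, at 0.0571 to 0.0641 without Runx1 or Runx3 replicate 2 and at 0.0565 to 0.0736 without Runx2 replicate 1 or either Runx3 array, and the second difference was −0.46 without Runx2 replicate 1. The dim second probe set of Sphk1 changed by 0.01 in the Runx3 line.

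Sphk2, the other kinase, was dim, with 4.76 and 4.95 in vector cells, 4.66 and 4.99 in Runx1 cells, 4.77 and 4.91 in Runx2 cells and 4.80 and 4.93 in Runx3 cells. The mouse lines overlapped with vector, with changes of −0.03, −0.01 and 0.01. The single human RUNX1 array read 4.29, a fall of 0.57 (SE 0.15, limma adjusted p = 0.0428) that was lost without vector replicate 1 (0.0741) or vector replicate 2 (0.172). Of the remaining genes of S1P removal, Sgpl1, the S1P lyase, read 8.88 and 8.60 in vector cells and from 8.55 to 8.77 in the mouse lines, and was called nowhere. Sgpp2, the second phosphatase, stayed between 3.14 and 3.43 on all arrays.

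Of the S1P receptors, S1pr1, S1pr2 and S1pr3 were members. S1pr2, a receptor known to restrain migration, read 7.03 and 6.89 in vector cells, 6.58 and 6.69 in Runx1 cells, 6.10 and 6.67 in Runx2 cells, 5.98 and 6.22 in Runx3 cells and 6.45 with human RUNX1. Every array of a constitutive line lay below both vector arrays, although the Runx2 replicates differed from each other by more than any other pair. S1pr2 fell in the Runx3 line by 0.86 log2 units (SE 0.15, limma adjusted p = 0.00229). The changes of −0.33 in Runx1 cells (limma adjusted p = 0.503) and −0.57 in Runx2 cells (0.0718) did not pass. Averaged over the 3 mouse lines it changed by −0.59 (SE 0.12, limma adjusted p = 0.0135), lost without vector replicate 1 (0.215) or vector replicate 2 (0.079); in that average 4.73% of all genes were called (1.88% higher, 2.85% lower) and 4 of 38 members, the others being Ugcg and St3gal5 (higher) and Sgpp1 (lower). The second S1pr2 probe set changed by −0.14 in Runx1, −0.06 in Runx2 and −0.36 in Runx3 cells and was not called.

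S1pr3, a receptor that couples to Gi, Gq and G12/13, differed between the lines in sign. It read 9.22 and 9.18 in vector cells, 9.70 and 9.53 in Runx1 cells, 8.93 and 9.01 in Runx2 cells, 8.50 and 8.70 in Runx3 cells and 8.54 with human RUNX1. Both mouse Runx1 arrays lay above vector and all arrays of the other constitutive lines below it. Against vector the change was 0.41 in Runx1 cells (SE 0.11, limma adjusted p = 0.101), −0.23 in Runx2 cells (0.436), −0.60 in Runx3 cells (0.00328) and −0.66 with human RUNX1 (SE 0.14, 0.0109), the last lost without vector replicate 1 (0.0623). In the direct comparison of lines the vector arrays do not enter the difference of means, only the shared estimate of the spread. Runx3 cells were below Runx1 cells by −1.02 (limma adjusted p = 9.33e-05) and Runx2 cells below Runx1 cells by −0.64 (0.0107). The latter call was lost without Runx1 replicate 1 or Runx2 replicate 1. The other 2 probe sets of S1pr3 had the same signs against vector in all 3 lines, at 0.31 and 0.37 in Runx1, −0.38 and −0.39 in Runx2 and −0.63 and −0.60 in Runx3 cells. The mouse and the human RUNX1 line were not tested against each other.

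S1pr1, the Gi-coupled receptor best known from lymphocytes and endothelium, was dim. It read 4.93 and 4.62 in vector cells, 4.42 and 4.82 in Runx1 cells, 4.79 and 4.66 in Runx2 cells, 4.62 and 4.35 in Runx3 cells and 4.12 with human RUNX1. The Runx1 and Runx2 arrays overlapped with vector and the higher Runx3 array met the lower vector array, while the human RUNX1 array was the lowest of all 15. The change in Runx3 cells was −0.29 with a 95% interval from −0.64 to 0.06, and that with human RUNX1 was −0.65 (limma adjusted p = 0.067).

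Of the 9 measured genes of de novo ceramide synthesis, 0 passed in the Runx1 and Runx2 lines and 2 in the Runx3 line. Of all genes, 1.7%, 2.57% and 9.37% were called in the Runx1, Runx2 and Runx3 lines. So small a count was not tested against these shares. Cers6, a ceramide synthase that prefers palmitoyl chains, read 5.88 and 6.01 in vector cells, 6.19 and 6.04 in Runx1 cells, 5.80 and 5.93 in Runx2 cells and 6.49 and 6.38 in Runx3 cells. The Runx3 arrays were the highest and did not overlap with any of these groups. Cers6 rose there by 0.49 (SE 0.11, limma adjusted p = 0.0126), a call lost without vector replicate 1 or Runx3 replicate 1. Against vector cells with 4-OHT it rose by 0.80 (limma adjusted p = 0.000362). That control itself differed from vector cells without 4-OHT by −0.31 in Cers6 (limma adjusted p = 0.673). Cers2, which makes very-long-chain ceramides, read 8.42 and 8.30 in vector cells, 8.42 and 8.49 in Runx1 cells, 8.16 and 8.26 in Runx2 cells and 8.07 and 7.92 in Runx3 cells. It was lowest in Runx3 cells, with a fall of 0.37 (SE 0.09, limma adjusted p = 0.0256) that was lost without vector replicate 1 (0.201), vector replicate 2 (0.0607) or Runx3 replicate 2 (0.204). Thus these 2 synthases moved in opposite directions in Runx3 cells.

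Sptlc1 and Sptlc2, subunits of serine palmitoyltransferase, were not called. Sptlc1 changed by 0.34 in the Runx3 line (limma adjusted p = 0.0517), and Sptlc2 by 0.33 in the Runx1 line (0.0985) and 0.28 in the Runx3 line (0.0615). Comparison of lines added a pair of genes with small differences. Degs1, the desaturase that finishes ceramide, read 9.57 and 9.58 in vector cells, 9.73 and 9.72 in Runx1 cells, 9.56 and 9.58 in Runx2 cells and 9.41 on both Runx3 arrays. Its Runx3 arrays were below its Runx1 arrays by −0.31 (SE 0.08, limma adjusted p = 0.0267), with adjusted p from 0.105 to 0.127 without any 1 of the 4 arrays. Cers4, another ceramide synthase, read 5.90 and 5.81 in vector cells, 5.95 and 5.89 in Runx1 cells, 5.66 and 5.74 in Runx2 cells and 5.67 and 5.16 in Runx3 cells. The second Runx3 array was the lowest by far, and the difference from Runx1 cells of −0.50 (SE 0.14, limma adjusted p = 0.0473) was −0.25 without it (0.381) and −0.76 without Runx3 replicate 1, and was lost without Runx1 replicate 1 (0.207) or 2 (0.15).

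Among enzymes that release or store ceramide, Asah1, the lysosomal acid ceramidase, read 10.04 and 10.10 in vector cells, 9.99 and 9.93 in Runx1 cells, 9.99 and 9.94 in Runx2 cells, 9.64 and 9.57 in Runx3 cells and 9.88 with human RUNX1. The Runx3 arrays lay below all others. Asah1 fell there by 0.47 (SE 0.08, limma adjusted p = 0.00267). Runx3 cells differed from Runx1 cells by −0.36 (limma adjusted p = 0.0199) and from Runx2 cells by −0.36 (0.0305), and both of these calls were lost without any 1 of their arrays, at 0.0582 to 0.144 and 0.0742 to 0.187. The other ceramidases, Asah2, Acer2 and Acer3, were not called in a constitutive line.

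Sgms2, the plasma membrane sphingomyelin synthase, read 5.76 and 5.42 in vector cells, 5.90 and 5.84 in Runx1 cells, 4.47 and 5.28 in Runx2 cells and 5.02 and 4.69 in Runx3 cells. Runx2 and Runx3 arrays lay below the vector and Runx1 arrays, with a wide spread between the Runx2 replicates. The fall in Runx3 cells was 0.74 (SE 0.21, limma adjusted p = 0.0419), lost without any 1 array (0.0549 to 0.299) and −0.40 against vector cells with 4-OHT (0.279); the change in Runx2 cells was −0.71 (0.111). Runx3 cells lay below Runx1 cells by −1.01 (limma adjusted p = 0.00924; 0.0714, 0.0549 and 0.105 without Runx1 replicate 1, Runx1 replicate 2 and Runx3 replicate 2). Runx2 cells lay below Runx1 cells by −0.99 (limma adjusted p = 0.0311), which became −0.59 without Runx2 replicate 1 (0.202) and was also lost without Runx1 replicate 1 (0.187) or 2 (0.17). The sphingomyelin synthase of the Golgi, Sgms1, was not called.

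The acid and the neutral sphingomyelinase, which release ceramide from sphingomyelin, moved apart. Smpd1, the acid lysosomal enzyme, read 6.67 and 6.63 in vector cells, 6.63 and 6.72 in Runx1 cells, 6.79 and 6.64 in Runx2 cells and 6.37 and 6.03 in Runx3 cells. It fell in Runx3 cells by 0.45 (SE 0.13, limma adjusted p = 0.0443), a value of −0.28 without Runx3 replicate 2 (0.357) and lost also without vector replicate 1 (0.205) or 2 (0.151); its other probe set changed by −0.07. Smpd2, a neutral sphingomyelinase, read 6.67 and 6.58 in vector cells, 6.67 and 6.65 in Runx1 cells, 7.10 and 6.99 in Runx2 cells and 6.96 and 7.13 in Runx3 cells. Its Runx2 and Runx3 arrays lay above those of vector and Runx1 cells. It rose by 0.42 in both lines (SE 0.10; limma adjusted p = 0.0474 in Runx2 and 0.0195 in Runx3), lost without any 1 array for Runx2 (0.0703 to 0.288) and without vector replicate 1 (0.0661), vector replicate 2 (0.146) or Runx3 replicate 2 (0.172) for Runx3. Smpd3, a further neutral sphingomyelinase, and Cerk, the ceramide kinase, were dim and not called.

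In the direct comparisons of lines, 3 members passed between Runx2 and Runx1 cells (1 higher, 2 lower) against 1.5% of all genes (0.511% higher, 0.989% lower), 12 between Runx3 and Runx1 cells (3 higher, 9 lower) against 6.52% (2.39% higher, 4.13% lower), and 6 between Runx3 and Runx2 cells (2 higher, 4 lower) against 3.76% (1.85% higher, 1.91% lower). These counts fell in most settings with 1 array left out. Such a fit also has fewer arrays, so a lost call does not by itself show that 1 array carried it. Between Runx2 and Runx1 cells 0 were left without Runx1 replicate 1 or Runx2 replicate 1 and 1 without Runx1 replicate 2. Between Runx3 and Runx1 cells 4 were left without Runx1 replicate 2 or Runx3 replicate 2 and 6 without Runx1 replicate 1. Between Runx3 and Runx2 cells 2 were left without Runx2 replicate 1, 3 without Runx3 replicate 1 and 1 without Runx3 replicate 2.

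With human RUNX1, whose single array was assumed to vary like the other groups, 2 members rose (Ugcg, St3gal5) and 3 fell (Sgpp1, S1pr3, Sphk2), where 7.33% of all genes were called, 2.19% higher and 5.14% lower. Without vector replicate 1 this count was 3. The median change of the members was −0.11 and that of all genes −0.05.

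The inducible construct gave a comparison over 24 hours in cells of 1 line. Adding 4-OHT to vector cells called 0 of 38 members and 0% of all genes with limma, and 3 members had an unadjusted p under 0.05. Uninduced RUNX1-ER cells differed from vector cells in 0 members (4 at an unadjusted p under 0.05), against 0.044% of all genes. On induction 1 member rose (Ugcg) and 1 fell (Sgpp1), where 1.92% of all genes were called (1.01% higher, 0.912% lower), and the median change was −0.02 over members and 0.02 over all genes. Without uninduced replicate 2, induced replicate 1 or induced replicate 2 the count was 1.

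Ugcg read 6.28 and 6.82 in uninduced and 7.81 and 7.74 in induced RUNX1-ER cells, and 5.73 and 5.99 in vector cells with 4-OHT. Both induced arrays lay above all uninduced and vector arrays, and the uninduced arrays lay above the vector arrays. The rise on induction was 1.22 log2 units (SE 0.16, limma adjusted p = 0.00123), and 1.35 beyond the change that 4-OHT made in vector cells (SE 0.22, 0.0133). This was the only member called in that second contrast, against 0.605% of all genes, 0.489% in that direction. It was lost without induced replicate 1 (0.0661), induced replicate 2 (0.0533), vector replicate 1 (0.0863) or replicate 1 of vector with 4-OHT (0.0518). The other bright Ugcg probe sets rose by 1.71 and 1.54 on induction.

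Sgpp1 read 8.32 and 8.43 in uninduced and 7.83 and 7.88 in induced cells, and 8.21 and 8.22 in vector cells with 4-OHT. The induced arrays were the lowest of these and of the untreated vector arrays. It fell by 0.52 on induction (limma adjusted p = 0.0124), a call lost without uninduced replicate 2 (0.135), induced replicate 1 (0.118) or induced replicate 2 (0.0795). Beyond 4-OHT in vector cells its change was −0.31 (0.444), which did not pass. St3gal5 read 7.11 and 7.24 in uninduced and 7.51 and 7.52 in induced cells, a difference of 0.34 (limma adjusted p = 0.078) that did not pass on the brightest probe set, while the other probe set rose by 0.79 (adjusted p = 0.00284 over all probe sets). Among the receptors the induction values were −0.42 for S1pr2 (limma adjusted p = 0.265), −0.34 for S1pr3 (0.203) and −0.06 for S1pr1, none of them called.

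**Figure D4:**
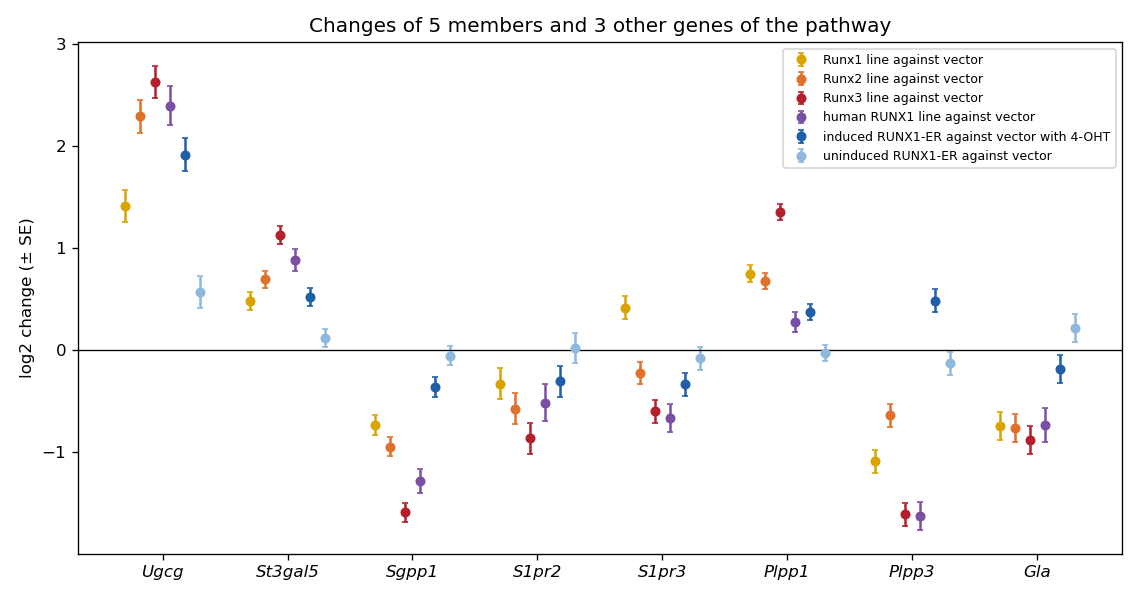
Log2 change with its SE for 8 genes in 6 comparisons. Ugcg is above 0 and Sgpp1 below 0 in all of them, whereas Plpp3 is below 0 in the constitutive lines and above 0 in induced RUNX1-ER cells.

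Set against vector cells with 4-OHT, induced RUNX1-ER cells had 3 members higher (Ugcg, St3gal5, Acer3) and 1 lower (B4galnt1), where 4.16% of all genes were called, 2.9% higher and 1.26% lower. Without induced replicate 1 the count was 2. Ugcg was higher by 1.91 (limma adjusted p = 2.57e-05) and St3gal5 by 0.52 (0.00448). Acer3, the alkaline ceramidase, read 4.87 and 5.16 in vector cells with 4-OHT and 6.18 and 5.74 in induced cells. This difference of 0.94 (limma adjusted p = 0.0122) was lost without induced replicate 1 (0.143) or replicate 1 of vector with 4-OHT (0.076). B4galnt1, dim throughout, read 4.42 and 4.70 in vector cells with 4-OHT and 3.80 and 3.92 in induced cells. The fall was 0.69 (SE 0.13, limma adjusted p = 0.00723), lost without induced replicate 1 (0.0841) or replicate 2 of vector with 4-OHT (0.0804).

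Over all 13 comparisons 17 of the 38 members were called at least once, against 17.7% of all genes, and 21 never. Of the 21, 10 had a mean above 5 log2 units and 11 were dim, and their largest change in the 3 mouse lines or on induction was that of Sptlc1.

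A companion list of 37 other genes of sphingolipid synthesis, breakdown, transport and signalling, of which 33 were measured, had 1 gene higher and 2 lower in the Runx1 and in the Runx2 line, 1 higher and 3 lower in the Runx3 line and 0 higher and 3 lower with human RUNX1. These are 9.09%, 9.09%, 12.1% and 9.09% of the list, beside 1.7%, 2.57%, 9.37% and 7.33% of all genes, so that the shares in Runx3 cells and with human RUNX1 lie near the background. Plpp1, a lipid phosphate phosphatase of the cell surface that can act on S1P, read 8.62 and 8.59 in vector cells, 9.36 and 9.34 in Runx1 cells, 9.26 and 9.29 in Runx2 cells and 9.93 and 9.98 in Runx3 cells. All mouse Runx arrays lay above vector. It rose by 0.75 (SE 0.08, limma adjusted p = 0.000256), 0.67 (0.000377) and 1.35 (2.6e-07). On induction it rose by 0.42 (limma adjusted p = 0.0156), a call lost without any 1 of the 4 arrays (0.0528 to 0.129), and with human RUNX1 it changed by 0.28 (0.109).

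Plpp3, a phosphatase of the same family, went the other way in the constitutive lines. It read 7.80 and 7.95 in vector cells, 6.77 and 6.80 in Runx1 cells, 7.17 and 7.30 in Runx2 cells, 6.38 and 6.15 in Runx3 cells and 6.25 with human RUNX1. All these Runx arrays lay below vector. It fell by 1.09 (SE 0.11, limma adjusted p = 0.00024), 0.64 (0.00736) and 1.61 (1.33e-06) in the mouse lines and by 1.63 with human RUNX1 (2.44e-05). The Runx2 call was lost without vector replicate 2 (0.0987) or Runx2 replicate 1 (0.0786).

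In RUNX1-ER cells Plpp3 read 7.70 and 7.79 uninduced and 8.30 and 8.02 induced, and 7.65 and 7.70 in vector cells with 4-OHT. The induced arrays were thus the highest of all groups. The change on induction was 0.42 (limma adjusted p = 0.103), and that against vector cells with 4-OHT was 0.48 (0.0332), lost without induced replicate 1 (0.293) or either array of vector with 4-OHT (0.106 and 0.11). The other Plpp3 probe set gave −1.11, −0.63 and −1.26 in the mouse lines, −1.36 with human RUNX1 and 0.59 on induction, each called over all probe sets (limma adjusted p = 0.0244 on induction). The difference between the constitutive and the inducible lines was not tested.

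Gla, the lysosomal alpha-galactosidase A that breaks down globotriaosylceramide, read 7.88 and 7.97 in vector cells, 7.15 and 7.22 in Runx1 cells, 7.08 and 7.24 in Runx2 cells, 7.17 and 6.93 in Runx3 cells and 7.20 with human RUNX1. Every array of a constitutive line was below both vector arrays. It fell by 0.74 (SE 0.14, limma adjusted p = 0.0124), 0.77 (0.00753) and 0.88 (0.000985) in the mouse lines and by 0.73 with human RUNX1 (0.0202). The call in Runx3 cells held without any 1 array. In Runx1 cells it was lost without any 1 array (0.0745 to 0.143), in Runx2 cells without vector replicate 1 (0.0529), vector replicate 2 (0.0849) or Runx2 replicate 1 (0.0811), and with human RUNX1 without either vector array (0.0664 and 0.0821). The other Gla probe set changed by −0.21, −0.08 and −0.61 in the mouse lines and was called only in Runx3 cells.

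Neu1, the lysosomal sialidase, read 4.99 and 5.09 in vector cells and 4.15 and 4.50 in Runx3 cells. It fell there by 0.72 (SE 0.12, limma adjusted p = 0.00206), but vector cells with 4-OHT read 4.65 and 4.49, and against them the value was −0.25 (0.247). Plekha8, a glycolipid transfer protein, read 5.91 and 5.73 in vector cells and 5.12 on the human RUNX1 array, a fall of 0.70 (SE 0.19, limma adjusted p = 0.0478) that was lost without vector replicate 1 (0.216) or 2 (0.0798) and was −0.39 against vector cells with 4-OHT (0.296). No other companion gene was called in these comparisons with vector cells.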

How the data were processed

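The table held 15 arrays of mouse NIH3T3 cells and 45101 probe sets. The deposited log2 values were made by the authors with GCOS for the raw data and Robust Multichip Average (RMA) for normalization, through the Bioconductor module affy in the FunAlyse pipeline, per the labels' protocols. Which versions and which probe-set definition were used is not given in the sources used here. This method gives all arrays one distribution and compresses dim signals, so folds of dim genes are understated and a change of total RNA would not show. Levels are not compared between genes.

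Arrays were grouped by title, and 34958 probe sets had 1 symbol in the platform annotation. For each of 18193 genes the brightest probe set entered limma 3.58.1 (R 4.3.3, lmFit and eBayes) with 1 coefficient per group over all 15 arrays (7 residual and 5.65 prior degrees of freedom). The tests were two-sided, with adjustment by Benjamini-Hochberg over all genes within each of 13 comparisons. A lone array was assumed to vary like the rest. P-values of other probe sets come from a fit on all probe sets, chosen after the data were seen. No gene was filtered out. The steps were tested on simulated data.

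The members and lists were chosen with earlier results of these data known. By the rule for named genes, all members may be named. The array values of vector cells and the mouse lines are given for the receptors, both kinases and members called in a mouse line against vector, on induction or between lines. Arrays of the other groups are given for some of these genes only. Companion genes are named where called against vector, and St3gal2 and Ugt8a, outside this rule, because they were called between lines. Alternatives were the mean of a gene's probe sets, genes with a mean above 5 only, a prior variance with a trend, arrays centred on their medians, the replicate block, vector with 4-OHT as control, only the groups compared, and each array left out. Promoter windows were matched for 34 of 39 members by symbol; protein sequences were not used here.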

Additional observations from a re-analysis of the deposited data

Results flagged for a closer look

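A few members differed between the Runx lines by a direct test of the difference, and one effect of induction differed from that of 4-OHT in vector cells. The values are log2 differences called with limma over all genes, and most of the smaller ones were lost without a single array, as given above.

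Runx2 cells exceeded Runx1 cells in Ugcg by 0.88 and lay below them in S1pr3 (−0.64) and Sgms2 (−0.99). Runx3 cells exceeded Runx1 cells in Ugcg by 1.21, in St3gal5 by 0.65 and in Smpd2 by 0.38. They lay below Runx1 cells in S1pr3 (−1.02), Sgms2 (−1.01), Sgpp1 (−0.86), Sphk1 (−0.67), Cers4 (−0.50), Smpd1 (−0.48), Cers2 (−0.46), Asah1 (−0.36) and Degs1 (−0.31). Without Runx3 replicate 2 the Smpd1 difference was −0.31 (limma adjusted p = 0.345).

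Runx3 cells exceeded Runx2 cells in Cers6 by 0.57 and in St3gal5 by 0.44, and lay below them in Sphk1 (−0.72), Sgpp1 (−0.64), Smpd1 (−0.52) and Asah1 (−0.36). Of these, the Cers6 call was lost without Runx2 replicate 1 (limma adjusted p = 0.0996) or either Runx3 array (0.0907 and 0.0506).

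Among the companion genes, Plpp1 was higher in Runx3 cells than in Runx1 cells by 0.60 and than in Runx2 cells by 0.68. St3gal2 (−0.45, limma adjusted p = 0.0255) and Ugt8a (−0.39, 0.0308), not called against vector, were lower in Runx3 cells than in Runx1 cells. Plpp3 was lower in Runx3 cells than in Runx1 cells (−0.52) and Runx2 cells (−0.97), the first lost without Runx1 replicate 1 (limma adjusted p = 0.0735), Runx1 replicate 2 (0.0895) or Runx3 replicate 2 (0.151). Neu1 was lower in Runx3 cells than in Runx1 cells (−0.45, or −0.28 without Runx3 replicate 1) and Runx2 cells (−0.53), the first call lost without Runx1 replicate 1, Runx1 replicate 2 or Runx3 replicate 1 and the second without Runx2 replicate 1, Runx2 replicate 2 or Runx3 replicate 1.

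For Ugcg, induction of RUNX1-ER exceeded the effect of 4-OHT in vector cells by 1.35.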

How the results depend on the processing

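Counts of members called moved by more than 1.5 times in these settings. With the mean of a gene's probe sets, induction went from 2 to 4 and induction beyond 4-OHT from 1 to 3. With only genes of a mean above 5, induction gave 4, Runx1 5, the average of the lines 8 and Runx2 against Runx1 5. With a prior variance with a trend, induction gave 5, Runx1 5 and induced cells against vector with 4-OHT 8. With vector with 4-OHT as the control, Runx1 gave 5 and the average 7. With only the groups compared, which leaves few degrees of freedom, induction gave 0, induction beyond 4-OHT 0, induced cells against vector with 4-OHT 1, human RUNX1 0, Runx2 against Runx1 0, Runx3 against Runx1 6 and Runx3 against Runx2 0.

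Leaving out 1 array at a time gave 2 to 2 calls for Runx1, 3 to 6 for Runx2, 6 to 10 for Runx3, 3 to 5 for the average, 3 to 4 for human RUNX1, 0 to 3, 4 to 9 and 1 to 4 for Runx2 against Runx1, Runx3 against Runx1 and Runx3 against Runx2, 1 to 2 for induction, 0 to 1 beyond 4-OHT, 2 to 4 for induced cells against vector with 4-OHT, and 0 to 0 for 4-OHT in vector cells and for uninduced cells. Of 82 calls of named genes, 30 were kept under every alternative that was run; over 953 checks, 726 kept the call, 226 lost it and 1 turned its direction. That one was Neu1 in the average of the lines, at 0.077 against vector with 4-OHT (limma adjusted p = 0.745). On the mean of probe sets the Runx3 value of Sphk1 was −0.26 (limma adjusted p = 0.0865) and that of Smpd1 −0.26 (0.0844), and the cause was not tested.

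Over 21 pairs of 7 groups the deviations of same-numbered arrays correlated from −0.158 to 0.254, with a median of −0.002, and 5 pairs were over 0.1. Whether some groups shared a batch by replicate number was not tested. With the replicate block, 3 members were called in Runx1, 3 in Runx2, 11 in Runx3 and 2 on induction; human RUNX1, with 1 array, was not in that fit. Dim probe sets limit what can be seen for 13 of the 38 members.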

Other observations

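Smpd3, a neutral sphingomyelinase of the inner leaflet of the plasma membrane, was dim on its brightest probe set, with a change of 0.27 on induction of RUNX1-ER that was not called. Its other 2 probe sets, singled out after their values were seen, behaved differently. One read 3.36 and 3.43 in uninduced and 4.54 and 4.48 in induced cells, 3.43 and 3.78 in vector cells and 3.48 and 3.41 in vector cells with 4-OHT. Both induced arrays lay above all of these, and the rise was 1.11 (limma adjusted p = 0.000204, in the fit on every probe set). The other rose by 0.76 (limma adjusted p = 0.0171). In the constitutive lines these probe sets gave −0.20 and −0.31 with Runx1 and −0.13 and 0.22 with Runx3, none of them called.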
